A study of Mus musculus with 6 samples.

Results

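The antioxidant and Nrf2 target genes were examined as a group of 10, namely Nfe2l2, Hmox1, Nqo1, Gclc, Gclm, Gpx1, Gpx4, Sod1, Sod2 and Txnrd1. They were found among the 60354 features of the count files by matching Ensembl identifiers to symbols in GENCODE M21 (build GRCm38), and each symbol matched 1 identifier. Hmox1 was listed at 0 counts in all 6 mice, so 9 of the 10 genes passed the filter on low counts and were tested.

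Whole brains of male C57BL/6NCrSlc animals were profiled by RNA-seq, 3 from the control diet (numbered 2, 5 and 10) and 3 from the PLDP diet (numbered 17, 22 and 26). PLDP is a protease-treated decomposition product of porcine liver. The PLDP mice ate a modified AIN-93M diet in which PLDP made up 20%, and the control mice ate a modified AIN-93M diet of matched calories, both for 16 weeks from an age of 16 weeks. By the study's recipe, the PLDP diet also held less casein and soybean oil and more cystine and α-cornstarch than the control diet. The groups thus differed in more than the liver product. Both diets contained tert-butylhydroquinone, a food antioxidant that is also known to activate Nrf2. Every mouse had gone through the behavioral tests, the forced swim among them, before its RNA was taken, and by the study's account PLDP was no longer fed during those tests. Total counts were between 18797061 and 23938729 per mouse. Levels are given as CPM, counts scaled to the TMM-adjusted library size. A call means an unadjusted p below 0.05 from edgeR's quasi-likelihood fit, and the adjusted p (Benjamini-Hochberg over all 18580 features) stands beside it.

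Nfe2l2 encodes Nrf2, the transcription factor that leads the response of cells to oxidants and electrophiles. In resting cells the adaptor Keap1 hands Nrf2 to a Cul3 ubiquitin ligase for destruction, and when Keap1 is modified Nrf2 accumulates, pairs with a small Maf protein and binds antioxidant response elements. Its activity is thus set mainly through protein stability, which RNA counts do not measure. Its classic targets include Hmox1 (heme degradation), Nqo1 (quinone reduction), Gclc and Gclm (the subunits of the enzyme that limits glutathione synthesis) and Txnrd1 (cytosolic thioredoxin reductase). The other members remove oxidants directly, Sod1 and Sod2 by dismutation of superoxide and Gpx1 and Gpx4 by reduction of peroxides with glutathione. In the brain, astrocytes are known for the stronger Nrf2 response and for supplying neurons with precursors of glutathione.

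Differences between the diets were small for all tested members. Of the 9, 1 was called lower in the PLDP mice, Gpx4, and 0 were called higher. Among all features tested, 8.6% were called, with 3.69% lower and 4.91% higher, so 1 of 9 is near the background. After adjustment over all genes tested 0 members passed in edgeR, and 0 passed in DESeq2, limma voom or edgeR's exact test, each of which also called 1 member at the unadjusted threshold. Without PLDP mouse 17, 2 members were called lower, Gpx4 (adjusted p = 0.0128 in edgeR) and Sod1 (0.332), so Gpx4 passed adjustment. Calls also rose over all features in that fit. There 1072 of 18848 features were called lower and 182 passed adjustment, beside 685 of 18580 and 6 with all mice. Members called were 0 without control mouse 2, control mouse 5, PLDP mouse 22 or PLDP mouse 26. By sign, 7 members were lower and 2 higher, where 50.2% of all features were lower, and the median log2 fold change over the 9 was -0.052, beside -0.00062 over all features tested. The values of the diets did not overlap for Nqo1 and Gclm, both lower in the PLDP mice, and over all features the same was true of 6.9%. In 8 of the 9 members the 95% interval of the log2 fold change spanned 0. Across the members these intervals ran from -0.47 to 0.16, which corresponds to at most 28.0% lower and 12.1% higher.

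**Figure D1:**
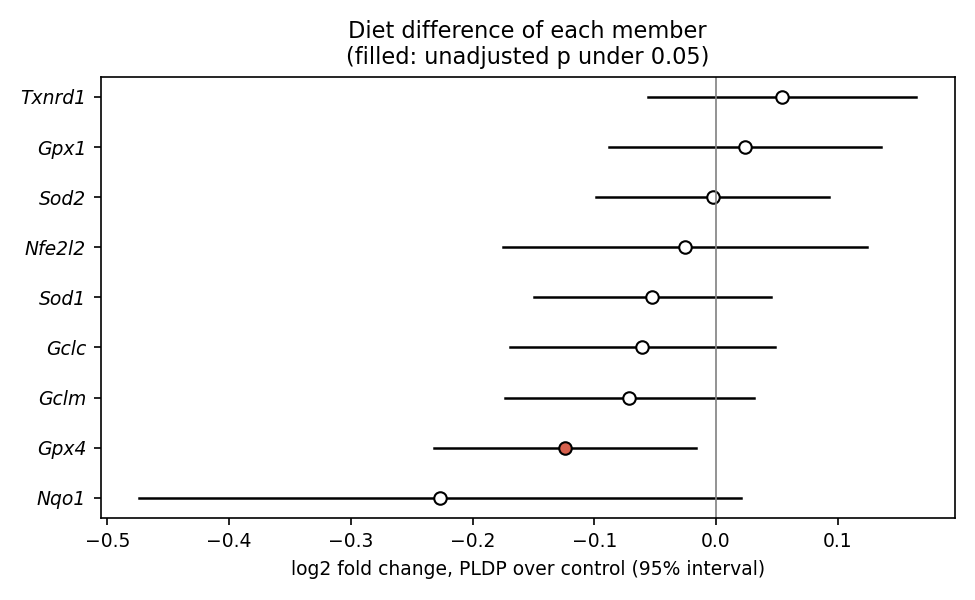
Log2 fold change of each tested member, PLDP over control (x axis), with its 95% interval from edgeR's quasi-likelihood fit. The filled point is Gpx4, whose interval lies below 0. The widest interval is that of Nqo1.

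Compared per kb of annotated exon, Gpx4 had the highest level and Nqo1 the lowest of the tested members. Gpx4 had 138 CPM per kb on average in the control mice, and Nqo1 had 4.26. The order from highest to lowest in the control mice was Gpx4, Sod1, Gpx1, Sod2, Gclc, Gclm, Txnrd1, Nfe2l2 and Nqo1. The ranges over the 6 mice overlapped for the neighbors Sod1 and Gpx1 and for the neighbors Gclm and Txnrd1, and were apart for all other neighbors. Sod1 was above Gpx1 in each of the 6 mice, whereas Gclm was above Txnrd1 in 4 of 6. The enzymes that remove superoxide and peroxides thus stood above the glutathione synthesis and thioredoxin reductase genes, and the transcription factor gene stood near the bottom with 4.96 CPM per kb in the control mice. These levels depend on the annotated exon length, which ranged from 1441 bases for Gpx1 to 10008 for Sod2 and counts all transcripts of a gene.

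**Figure D2:**
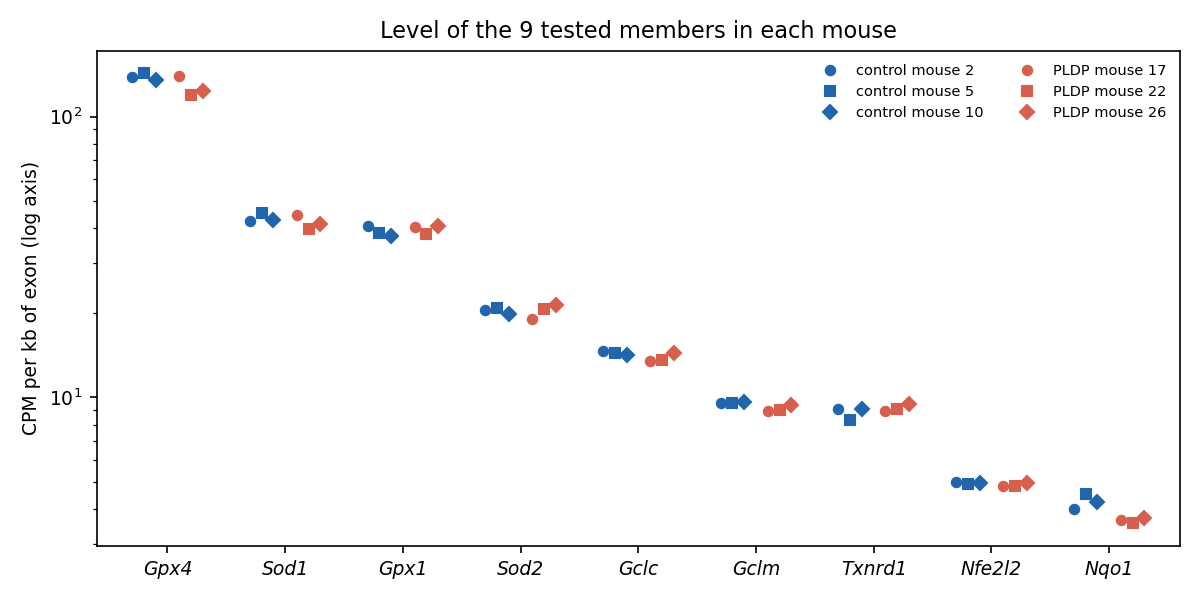
Level of each tested member in CPM per kb of exon (y axis, logarithmic), with 1 point per mouse, blue for control and red for PLDP mice. The order of the genes is much the same in all 6 mice.

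Nfe2l2, on chromosome 2 from 75675513 to 75704641, was nearly the same in every mouse. It had 18.95, 18.69 and 18.87 CPM in control mice 2, 5 and 10, and 18.41, 18.36 and 18.76 CPM in PLDP mice 17, 22 and 26. The highest value was 1.03 times the lowest, and the diets overlapped. The log2 fold change of Nfe2l2 was -0.026 (95% interval -0.18 to 0.12, adjusted p = 0.955 in edgeR). Its mean was 397 counts per mouse, for which counting alone gives a coefficient of variation of 5.02%, more than the 0.71% observed among the control mice and the 1.17% among the PLDP mice.

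Hmox1, on chromosome 8 from 75093621 to 75100589, encodes the inducible heme oxygenase. It was listed at 0 in all 6 mice. Polr2k, a subunit that nuclear RNA polymerases share, was also listed at 0, as were 3677 of the 21863 genes annotated as protein coding. No level of Hmox1 is therefore read from these files. The constitutive heme oxygenase gene Hmox2, which is outside the 10, was counted in every mouse, with 71.7 ± 1.27 CPM on the control diet, against 70.4 ± 2.36 on the PLDP diet (SD, n = 3 each). Hmox2 overlapped between the diets and was not called.

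Nqo1, on chromosome 8 from 107388225 to 107403206, had the largest fold change of the tested members. It had 6.21, 7.03 and 6.60 CPM on the control diet, against 5.67, 5.53 and 5.77 CPM in the PLDP mice. No PLDP mouse reached the lowest control mouse. The log2 fold change of Nqo1 was -0.23 (standard error 0.12, 95% interval -0.47 to 0.021), with an unadjusted p of 0.0700 and an adjusted p of 0.621 in edgeR, so it was not called. With 3 mice against 3, an exact two-sided permutation test for a gene cannot go below p = 0.1. Nqo1 was also the member with the fewest counts, 108 to 155 per mouse, and counting alone gives a coefficient of variation of 8.76% at its mean.

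Gclm and Gclc form the first enzyme of glutathione synthesis, Gclc as the catalytic and Gclm as the modifier subunit. Gclm (chromosome 3 from 122245557 to 122270732) had 59.8, 60.1 and 60.6 CPM on the control diet, against 56.3, 56.8 and 58.8 in the PLDP mice. The diets did not overlap for Gclm, and its log2 fold change was -0.071 (95% interval -0.17 to 0.031, adjusted p = 0.728 in edgeR). Gclc (chromosome 9 from 77754535 to 77794485) had 55.2, 54.2 and 53.3 CPM on the control diet, against 50.5, 51.2 and 54.3 in the PLDP mice. The diets overlapped for Gclc through PLDP mouse 26, and its log2 fold change was -0.061 (95% interval -0.17 to 0.048, adjusted p = 0.790 in edgeR). Neither subunit was called, and for both the lowest value was in PLDP mouse 17. Part of the Gclm exons, 296 bases, is shared with Gm17494 on the opposite strand, which had 85 to 121 counts per mouse. On the same strand, 244 bases are shared with Gm6061, a transcribed processed pseudogene listed at 0 counts in every mouse. The strand setting of the counting and its handling of reads in such stretches are not given in the sources used here.

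**Figure D3:**
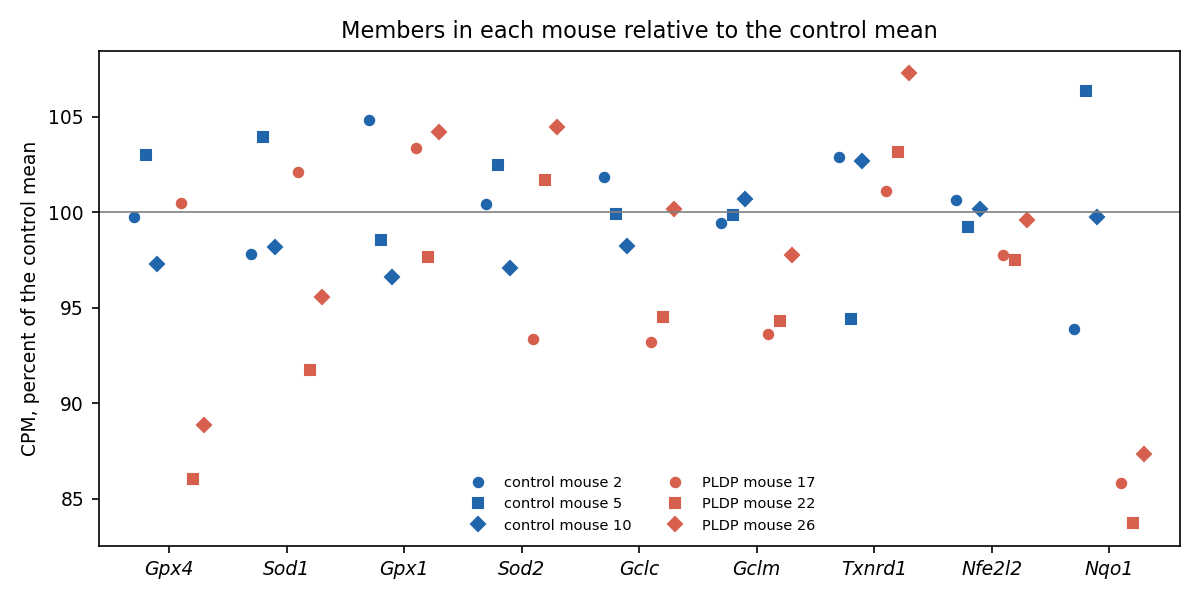
CPM of each tested member in each mouse as a percent of that gene's mean in the control mice (y axis), blue for control and red for PLDP mice. All values lie between 83.7% and 107.3%. Only Gclm and Nqo1 have all red points below all blue ones.

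Promoter sequences are shown for Gclm and Nqo1, because these are the members whose diets did not overlap. The RefSeq windows (GRCm38.p6) hold 250 bases before and 50 after the annotated start, and were available for 8 of the 10 members. They were searched on both strands for TGACNNNGC, the core of the antioxidant response element, and capitals mark a match. The Gclm window (chr3:122245307-122245606, plus strand) has a match on the opposite strand 134 bases before the start, and the Nqo1 window (chr8:107403156-107403455, minus strand) has none. Bases outside the windows were not searched, so an element farther from either start would not be seen.
Gclm: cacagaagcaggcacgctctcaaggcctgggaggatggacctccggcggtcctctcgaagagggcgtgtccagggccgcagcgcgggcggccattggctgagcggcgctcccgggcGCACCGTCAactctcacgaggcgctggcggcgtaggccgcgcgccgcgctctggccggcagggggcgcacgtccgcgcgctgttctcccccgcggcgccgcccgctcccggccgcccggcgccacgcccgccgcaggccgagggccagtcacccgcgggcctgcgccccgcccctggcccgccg
Nqo1: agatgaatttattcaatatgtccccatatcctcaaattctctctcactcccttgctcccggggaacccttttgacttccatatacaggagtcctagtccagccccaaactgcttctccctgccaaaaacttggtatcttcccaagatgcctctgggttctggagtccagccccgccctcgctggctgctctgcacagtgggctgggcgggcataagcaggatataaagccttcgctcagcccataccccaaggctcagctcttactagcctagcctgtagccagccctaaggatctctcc

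Matches were also found in windows of Nfe2l2, Txnrd1 and Sod1, which are shown with 10 bases on each side to compare the variable bases of the element. The match of Nfe2l2 (chr2:75704895-75704903, minus strand) lies 240 bases before its start. That of Txnrd1 (chr10:82859114-82859122) lies 92 bases before 1 of its annotated starts, and that of Sod1 (chr16:90220706-90220714) lies 56 bases before the start. The sequences are given along the strand of the gene, so that a match on the opposite strand reads as GCNNNGTCA.
Nfe2l2: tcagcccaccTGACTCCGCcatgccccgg
Gclm: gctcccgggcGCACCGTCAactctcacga
Txnrd1: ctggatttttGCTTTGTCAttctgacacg
Sod1: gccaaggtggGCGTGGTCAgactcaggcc
In all, 4 of the 8 members with a window had a match, beside 16.5% of the 12116 tested genes with a window and 12.4% of all 32851 windows. A match is a description of the letters in the window, and 0 of the 4 genes with a match were called.

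Txnrd1, on chromosome 10 from 82833951 to 82897712, is a selenoprotein that keeps thioredoxin reduced. It had 64.3, 59.0 and 64.2 CPM on the control diet, against 63.2, 64.4 and 67.0 in the PLDP mice. The diets overlapped, with the lowest value in control mouse 5 and the highest in PLDP mouse 26. The log2 fold change of Txnrd1 was 0.054 (95% interval -0.056 to 0.16, adjusted p = 0.821 in edgeR).

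The superoxide dismutases did not pass the test. Sod1, the cytosolic copper and zinc enzyme (chromosome 16 from 90220754 to 90226329), had 169, 179.6 and 169.7 CPM on the control diet, against 176, 158 and 165 in the PLDP mice. Its log2 fold change was -0.052 (95% interval -0.15 to 0.045, adjusted p = 0.800 in edgeR), and PLDP mouse 17 lay within the range of the control mice. Without PLDP mouse 17, Sod1 had a log2 fold change of -0.096, with an unadjusted p of 0.0291 and an adjusted p of 0.332 in the same test. Sod2, the mitochondrial manganese enzyme (chromosome 17 from 13006846 to 13040063), had 205, 209 and 198 CPM on the control diet, against 190.3, 207 and 213 in the PLDP mice. The diets overlapped for Sod2, PLDP mouse 17 had the lowest value and PLDP mouse 26 the highest, and the log2 fold change was -0.0028 (95% interval -0.099 to 0.093, adjusted p = 0.994 in edgeR).

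Gpx1, the abundant cytosolic glutathione peroxidase (chromosome 9 from 108338903 to 108340343), had 58.9, 55.3 and 54.3 CPM on the control diet, against 58.1, 54.8 and 58.5 in the PLDP mice. The diets overlapped, and the log2 fold change of Gpx1 was 0.024 (95% interval -0.088 to 0.14, adjusted p = 0.943 in edgeR).

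Gpx4, the selenoprotein that reduces lipid hydroperoxides in membranes and guards cells against ferroptosis, was the member called lower. The gene lies on chromosome 10 from 80047166 to 80056439. It had 238, 246 and 232 CPM on the control diet, against 239.9, 205 and 212 in the PLDP mice. PLDP mice 22 and 26 were below all control mice, and PLDP mouse 17 was between them, so the diets overlapped. The means were 239 ± 6.83 CPM on the control diet, against 219 ± 18.3 on the PLDP diet (SD, n = 3 each). For Gpx4 the fitted log2 fold change was -0.12 (standard error 0.051, 95% interval -0.23 to -0.016), with an unadjusted p of 0.0269 and an adjusted p of 0.505 in edgeR. The call did not hold in 4 of the 6 fits with 1 mouse fewer, although the direction did. The log2 fold change was -0.13 without control mouse 2 (unadjusted p = 0.0545), -0.10 without control mouse 5 (0.104) or PLDP mouse 26 (0.0951), and -0.080 without PLDP mouse 22 (0.145). Without PLDP mouse 17 the log2 fold change was -0.19, with an adjusted p of 0.0128 in edgeR. Over the 16 alternative fits its adjusted p ranged from 0.0128 to 0.840.

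The reads of Gpx4 can also match a pseudogene, Gpx4-ps2, on chromosome 10 from 45875291 to 45876086. In GENCODE M21 a Gpx4 transcript of 959 bases and a Gpx4-ps2 transcript of 782 bases align over 762 bases, of which 760 are identical. The stretch around the codon that is read as selenocysteine, codon 73 of that Gpx4 transcript at the center of its bases 301 to 423, is shown from both transcripts to let the likeness be seen. Capitals mark the only base that differs in it.
Gpx4: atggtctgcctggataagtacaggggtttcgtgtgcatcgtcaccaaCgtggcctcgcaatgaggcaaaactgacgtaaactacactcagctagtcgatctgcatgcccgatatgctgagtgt
Gpx4-ps2: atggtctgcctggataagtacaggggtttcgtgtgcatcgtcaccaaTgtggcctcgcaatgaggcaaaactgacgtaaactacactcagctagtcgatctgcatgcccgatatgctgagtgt
Gpx4-ps2 had 71.1, 75.0 and 69.5 CPM on the control diet, against 79.5, 65.1 and 65.3 in the PLDP mice. Gpx4 took 77.0%, 76.6% and 77.0% of the sum of both on the control diet, against 75.1%, 75.9% and 76.5% in the PLDP mice. The share was thus slightly lower in all PLDP mice, and this difference was not tested. How the counting assigned reads that fit both is not given in the sources used here. With both summed into 1 row, an alternative added after the data were seen, the log2 fold change was -0.10 (95% interval -0.22 to 0.0081, adjusted p = 0.613 in edgeR), and the unadjusted p was 0.0669. The call of Gpx4 was thus also lost when its reads were summed with those of its pseudogene.

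The order of the PLDP mice in Gpx4 was also seen in Sod1 and in the ribosomal protein genes, which were chosen after their values were seen, but not in Sod2, where PLDP mouse 17 was the lowest. The summed CPM of 83 cytosolic ribosomal protein genes was 12967, 13082 and 12870 on the control diet, against 13676, 11988 and 12549 in the PLDP mice. In this sum, as in Gpx4 and Sod1, PLDP mouse 17 was the highest and PLDP mouse 22 the lowest of the PLDP mice, and PLDP mice 22 and 26 were below all control mice. The part of this shared order in the difference of Gpx4 was not tested.

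**Figure D4:**
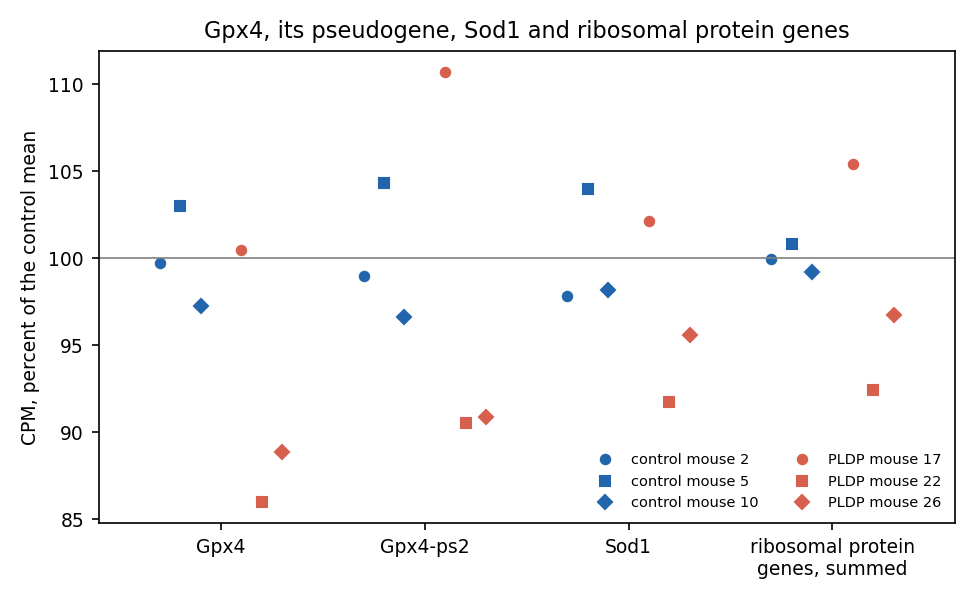
CPM of Gpx4, Gpx4-ps2 and Sod1 and the summed CPM of 83 ribosomal protein genes in each mouse, as a percent of the control mean (y axis), blue for control and red for PLDP mice. PLDP mouse 17 is the highest of the PLDP mice in all of them, and PLDP mice 22 and 26 are below the control mice.

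Around these members, 87 further genes of the antioxidant pathways were taken from 8 lists, and 85 of them were tested. At an unadjusted p under 0.05, 1 was called higher and 2 were called lower, or 3.53% of those tested, beside 8.6% of all features. Without PLDP mouse 17, 2 were called higher and 10 lower. Over all features the calls went from 913 to 1293 higher and from 685 to 1072 lower, with 18580 and 18848 features tested. The pathway genes called lower were 4 without PLDP mouse 22 and 1 without control mouse 5 or PLDP mouse 26. After adjustment over all genes 0 passed in edgeR with all 6 mice and the filter on low counts. With no such filter Gstp1 passed (adjusted p = 0.0428 in edgeR). By sign, 60 were lower and 25 higher under PLDP. Over all features tested 50.2% were lower by sign. The median log2 fold change of the 85 was -0.030, beside -0.00062 over all features. The values of the diets did not overlap, with PLDP lower, for 4 of the 85, a smaller share than the 6.9% of all features.

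The list of Nrf2 control genes held 11 tested genes, and 0 were called. Keap1, the adaptor that binds Nrf2, had 79.2 ± 3.82 CPM on the control diet, against 77.7 ± 4.46 on the PLDP diet (SD, n = 3 each). Cul3, the scaffold of the ligase, had 137.0 ± 0.25 CPM on the control diet, against 129 ± 6.90 on the PLDP diet (SD, n = 3 each). All 3 PLDP mice were below the control mice for Cul3, with a log2 fold change of -0.087 and an adjusted p of 0.625 in edgeR. The genes of the list with the highest CPM, not scaled to length, were Sqstm1, the autophagy receptor that binds Keap1, and the Nrf2 relative Nfe2l1, with log2 fold changes of -0.038 and -0.0081. The small Maf gene Mafg was listed at 0.

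Of the 17 tested genes of glutathione enzymes, 1 was called. Gstp1, a glutathione transferase of the pi class, had 119.98, 107.9 and 104.6 CPM on the control diet, against 117, 89.2 and 86.8 in the PLDP mice. PLDP mouse 17 again lay among the control mice, and the diets overlapped. The fit gave a log2 fold change of -0.18 for Gstp1 (standard error 0.084, adjusted p = 0.565 in edgeR), and it kept a similar size but not the call in DESeq2 (-0.18, unadjusted p = 0.227), with upper-quartile factors (-0.18, 0.0598) and without control mouse 5 (-0.20, 0.0543). It was smaller and not called without control mouse 2 (-0.12), PLDP mouse 22 (-0.12) or PLDP mouse 26 (-0.11). Without PLDP mouse 17 its log2 fold change was -0.33, at an adjusted p of 0.0035 in edgeR. Over the alternatives its adjusted p ranged from 0.0035 to 0.913, and with no filter on low counts it was 0.0428. The genes with the highest CPM in this list were Gstm1, of the mu class, and Ggt7, with log2 fold changes of 0.026 and 0.074. Slc7a11, the cystine importer and a known Nrf2 target, had 43.1 ± 2.40 and 43.2 ± 2.25 CPM (SD, n = 3 each), and Gsr, which regenerates glutathione, had a log2 fold change of -0.062.

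The 16 genes of thioredoxins and peroxiredoxins had 0 calls, with log2 fold changes between -0.13 and 0.089. Those with the highest CPM, not scaled to length, were the peroxiredoxins Prdx5 and Prdx6, with log2 fold changes of -0.054 and 0.060. Srxn1, which repairs overoxidized peroxiredoxins and is a known Nrf2 target, had a log2 fold change of 0.021. The 6 genes of superoxide and peroxide removal, such as catalase (Cat) and the methionine sulfoxide reductase Msra, had 0 calls, with log2 fold changes between -0.077 and 0.050.

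All 7 genes of NADPH supply, which provides the electrons for glutathione and thioredoxin reduction, were lower in the PLDP mice by sign, and 1 was called. Idh1, the cytosolic NADP-dependent isocitrate dehydrogenase, had 38.8, 42.1 and 36.8 CPM on the control diet, against 35.6, 36.3 and 31.7 in the PLDP mice. All 3 PLDP mice were below the control mice. The log2 fold change of Idh1 was -0.18 (standard error 0.068, adjusted p = 0.449 in edgeR), and its unadjusted p of 0.0162 became 0.106 without control mouse 5 and 0.0941 without PLDP mouse 26, with a log2 fold change of -0.13 in both. Pgd, the second NADPH-producing enzyme of the pentose phosphate pathway, also did not overlap between the diets, with a log2 fold change of -0.10 and an adjusted p of 0.640 in edgeR. Tkt and Taldo1, the genes of the list with the highest CPM, had log2 fold changes of -0.033 and -0.057.

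In heme and iron handling 0 of 11 genes were called. The ferritin subunit genes Fth1 and Ftl1, both known Nrf2 targets, had the highest CPM of the list. Fth1 had 1775 ± 33.5 CPM on the control diet, against 1837 ± 129 on the PLDP diet (SD, n = 3 each), and Ftl1 had a log2 fold change of 0.041. The transferrin receptor gene Tfrc, which responds to cellular iron, had a log2 fold change of -0.062. The 8 genes of quinone and xenobiotic detoxification had 0 calls. The highest CPM in the list were those of the carbonyl reductase gene Cbr1 and the epoxide hydrolase gene Ephx1, with log2 fold changes of -0.014 and 0.045, and Nqo2, the relative of Nqo1, had a log2 fold change of -0.0097.

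Of the 9 genes of selenoprotein synthesis and supply, 1 was called. Lrp8, a receptor through which brain cells take up selenoprotein P, had 85.5, 79.1 and 84.3 CPM on the control diet, against 82.7, 97.3 and 92.7 in the PLDP mice. The diets overlapped for Lrp8 through PLDP mouse 17. The fit gave a log2 fold change of 0.13 for Lrp8 (standard error 0.058, adjusted p = 0.533 in edgeR), and it was not called without control mouse 10 (0.14, unadjusted p = 0.0511), PLDP mouse 26 (0.12, 0.0943), control mouse 5 (0.098, 0.152) or PLDP mouse 22 (0.077, 0.217). Without PLDP mouse 17 it was larger (0.20, adjusted p = 0.0535 in edgeR), and its adjusted p over the alternatives ranged from 0.0535 to 0.855. Selenop, the gene of selenoprotein P itself, had 243 ± 3.52 and 245 ± 5.79 CPM (SD, n = 3 each), and Sephs2, which makes the selenium donor, had a log2 fold change of -0.067.

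**Figure D5:**
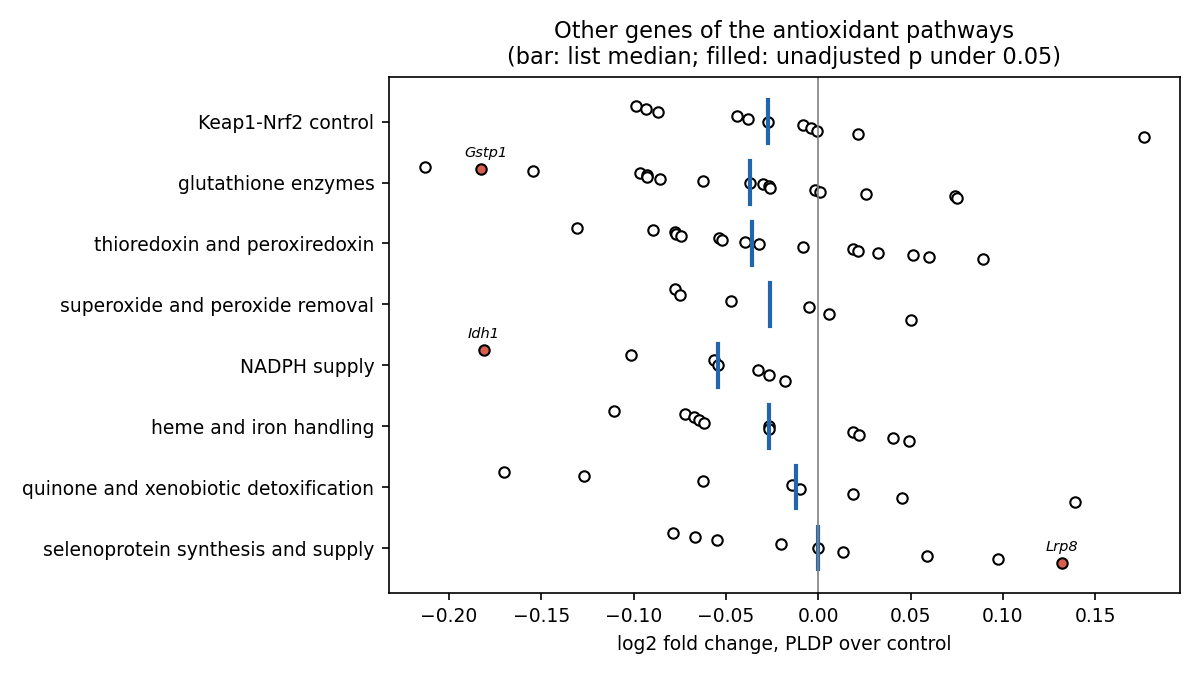
Log2 fold change, PLDP over control (x axis), of the 85 tested genes of the 8 pathway lists (rows), with 1 point per gene. Bars are list medians, and the filled points are Gstp1, Idh1 and Lrp8, the genes called at an unadjusted p under 0.05.

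In whole tissue, fewer cells of a type and less RNA per cell cannot be told apart, and some markers of other cell types were called between these brains, to be read beside the 8.6% of all features called (3.69% lower, 4.91% higher). All 6 hindbrain genes examined, the glycine transporter gene Slc6a5 among them, were called lower, and their summed CPM was 57.1 to 66.4 on the control diet, against 26.7 to 43.6 in the PLDP mice. Slc6a5 was the only gene of the marker lists given here to pass adjustment over all genes (adjusted p = 0.0369 in edgeR). Of 5 choroid plexus genes 2 were called lower, Ttr and Folr1 (summed CPM 740 to 794 and 580 to 734). Of 6 astrocyte genes 1 was called lower, Aqp4 (1371 to 1430 and 1323 to 1374), and of 6 microglial genes 1 was called lower, P2ry12 (300.01 to 314 and 291 to 296). Other markers of these cells were nearly level, with log2 fold changes of 0.0074 for Aldh1l1 and 0.0059 for Gja1 in astrocytes and -0.0093 for Cx3cr1 in microglia. Of 5 endothelial genes 2 were called higher, Pecam1 and Flt1 (173 to 176 and 177 to 192), while 0 of 5 blood genes, 0 of 5 meningeal genes and 0 of 4 neuronal genes were called. The part of these differences in the values of Gpx4, Nqo1, Gclm, Gstp1 and Idh1 was not tested.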

How the data were processed

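RNA was taken from the whole brain of 3 control and 3 PLDP mice and sequenced from stranded libraries of polyadenylated RNA. The authors deposited read counts per gene as whole numbers, 1 file per mouse and without normalization. The submitters' processing notes list cutadapt 2.9, HISAT2 2.2.0, featureCounts and DESeq2, and the builds GRCm38 and GRCh38, with no role for any of them. The strand setting, the annotation release and the handling of shared reads are not given in the sources used here, which limits the values of Gpx4 and Gclm. Of the 60354 features, 55034 have Ensembl identifiers, 54777 of them found in GENCODE M21.

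Diets were compared with edgeR 4.0.16 under R 4.3.3 (filterByExpr by diet, count minimum 10, total minimum 15, TMM, glmQLFit and glmQLFTest, diet as the only term). Standard errors were computed from the coefficient and its F statistic. Alternatives were 2 other filters, 3 other scalings, DESeq2 1.42.0, edgeR's exact test, limma 3.58.1 with voom, bias-adjusted quasi-dispersions, Ensembl genes only and leaving out each mouse. The edgeR quasi-likelihood fit alone was run on simulated counts as a check of the code, and its outcome is not reported here. Python 3.11.15, pandas 2.3.3 and matplotlib 3.10.9 were used for tables and plots.

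The members and lists were chosen with earlier results of these data known. Named were all members and, in each pathway list, genes with an unadjusted p under 0.05 and the 2 with the highest CPM. Of these lists, Cul3, Keap1, Pgd, Slc7a11, Gsr, Srxn1, Tfrc, Hmox2, Nqo2, Mafg and Sephs2, and also Gpx4-ps2, Polr2k and the ribosomal protein genes were named after their values were seen. Of the marker lists, up to 3 genes with an unadjusted p under 0.05 could be named, and 1 marker list is not reported here. By the study's methods each library came from a different mouse, and the numbers of the mice are those in the sample titles.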

Additional observations from a re-analysis of the deposited data

How the results depend on the processing

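Of the 144 values of the 9 members over 16 alternative fits, 140 kept the direction of the main value. The exceptions were Sod2, at 0.0021 with upper-quartile factors and between -0.037 and 0.043 when 1 mouse was left out, and Gpx1, between -0.00091 and 0.058 when 1 mouse was left out. Gpx4 was called under all 10 settings that kept every mouse, with unadjusted p from 0.0040 to 0.0422, and in 2 of the 6 fits that left out 1. Leaving out 1 mouse gave from 0 to 2 members called lower, the 2 being Gpx4 and Sod1 without PLDP mouse 17, and a median member log2 fold change from -0.066 to -0.021. It gave from 0 to 2 pathway genes called higher, and from 1 to 10 lower, the 10 without PLDP mouse 17 and 4 without PLDP mouse 22. Over all features it gave from 640 to 1293 called higher, from 493 to 1072 called lower, and from 0 to 182 passing an adjusted p of 0.05, beside 913, 685 and 6. With no filter on low counts 1046 features were called lower and 180 passed the adjusted threshold, with 36099 features tested. DESeq2 gave 564 higher, 362 lower and 24 adjusted, edgeR's exact test 65 adjusted, limma voom 3 and library size only 1. Pathway genes called lower fell from 2 to 1 with upper-quartile factors and in DESeq2. The cause of these shifts was not tested. With the depth at hand, the 95% interval of Nqo1 spanned from 28.0% lower to 1.44% higher, while that of Sod2 spanned from 6.61% lower to 6.67% higher. No paired analysis was possible because the groups share no mouse numbers.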
